A study of Mus musculus with 20 samples.

Results

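The UDP-glucuronosyltransferase genes described here are 10 named Ugt genes: Ugt1a1, Ugt2a3, Ugt2b1, Ugt2b5, Ugt2b34, Ugt2b35, Ugt2b36, Ugt2b37, Ugt2b38 and Ugt3a2. The rule picks them by gene symbol alone, though the symbols were set down with earlier results of these data known. All 10 were found in both deposited RNA-seq tables, among 56884 genes listed for males and 18149 listed for females, so each one passed into the shorter female table, whose smallest mean was 6.61 normalized counts. The study profiled livers of mice carrying Midn-XTR, a conditional gene trap in Midn, the gene of a nuclear protein that brings transcription factors to the proteasome. RNA-seq covered 3 WT and 3 Midn-T livers in each sex, from animals 11 to 14 weeks old. The WT libraries carry the genotype label Midn XTR and the Midn-T libraries the label Midn TR. In Midn-T the trap had been switched by Albumin-Cre, a transgene used to act in hepatocytes, while the RNA came from whole liver with its other cells. Whether the WT mice carried the Cre transgene is not given in the sources used here. ATAC-seq of 2 livers per sex and genotype was not used.

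Every level below is the authors' mean normalized count over the 6 livers of 1 sex, in which the 3 WT and the 3 Midn-T livers are pooled. The values therefore describe how much of each transferase RNA the livers of each sex held, and they hold no difference between WT and Midn-T, so the loss of Midn itself could not be checked in them. No value for a single liver was used. The spread between livers is unknown, no SD or test can be given, and which neighbours in an order of levels differ beyond their spread cannot be told. The 2 tables were normalized separately, so a male and a female value were set side by side only after each table was scaled to a total of 1000000 over the 18149 genes listed in both. The scaled value is given as CPM. In whole liver, fewer cells of a type and less RNA per cell cannot be told apart.

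UDP-glucuronosyltransferases are membrane enzymes of the endoplasmic reticulum that join glucuronic acid, carried by UDP-glucuronic acid, to bilirubin, steroids, bile acids, drugs and other fat-soluble compounds. The conjugate is more soluble in water and leaves the hepatocyte into bile or blood. The Ugt1a genes share their last exons and differ in the first, which encodes the part that binds the acceptor, whereas each Ugt2b gene is complete in itself. Ugt3a enzymes use UDP sugars other than UDP-glucuronic acid.

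The members lay at 3 places in the mouse genome (GRCm39). Ugt1a1, the bilirubin-conjugating transferase (ENSMUSG00000089960), occupied chr1:88139679-88147724 on the plus strand, and Ugt3a2 (ENSMUSG00000072664) chr15:9276974-9315118 on the plus strand. The other 8 formed a cluster on chromosome 5, from 87037626 to 87572062, a span of 534 kb with 0 protein-coding genes other than the members inside. Along it came Ugt2b34, Ugt2b1, Ugt2b35, Ugt2b36, Ugt2b5, Ugt2b37, Ugt2a3 and Ugt2b38, with gaps between gene bodies of 9.68 kb (Ugt2b34 to Ugt2b1) to 100.1 kb (Ugt2b5 to Ugt2b37). Ugt2b5 (ENSMUSG00000054630) spans chr5:87272226-87288211, Ugt2b37 (ENSMUSG00000057425) chr5:87388352-87402663 and Ugt2b38 (ENSMUSG00000061906) chr5:87557801-87572062. Of the 8 cluster genes, 7 lay on the minus strand and Ugt2b35 on the plus strand.

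Ugt2b5, Ugt2b37 and Ugt2b38 were close copies of one another with unlike levels, and their promoters are shown for that reason. Each runs from 250 bases before to 50 bases after the start of the annotated canonical transcript, read 5′ to 3′ from GRCm39 (Ugt2b37 chr5:87402614-87402913, minus strand; Ugt2b38 chr5:87572013-87572312, minus strand; Ugt2b5 chr5:87288162-87288461, minus strand). Capitals in the Ugt2b37 line mark bases that do not match Ugt2b38 in a pairwise alignment, capitals in the Ugt2b38 line mark bases that do not match Ugt2b37, and capitals in the Ugt2b5 line mark bases that do not match Ugt2b38.
Ugt2b37: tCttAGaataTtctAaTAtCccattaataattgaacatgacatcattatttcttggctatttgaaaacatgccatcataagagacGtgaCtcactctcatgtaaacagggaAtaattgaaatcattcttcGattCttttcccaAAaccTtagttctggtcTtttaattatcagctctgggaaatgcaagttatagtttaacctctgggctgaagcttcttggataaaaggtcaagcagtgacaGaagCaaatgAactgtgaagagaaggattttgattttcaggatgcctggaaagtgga
Ugt2b38: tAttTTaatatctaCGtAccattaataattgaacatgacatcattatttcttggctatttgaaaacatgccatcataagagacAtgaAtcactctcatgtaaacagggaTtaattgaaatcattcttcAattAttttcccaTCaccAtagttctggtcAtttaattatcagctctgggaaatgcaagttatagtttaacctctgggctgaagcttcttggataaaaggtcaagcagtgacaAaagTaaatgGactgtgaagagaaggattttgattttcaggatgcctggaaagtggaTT
Ugt2b5: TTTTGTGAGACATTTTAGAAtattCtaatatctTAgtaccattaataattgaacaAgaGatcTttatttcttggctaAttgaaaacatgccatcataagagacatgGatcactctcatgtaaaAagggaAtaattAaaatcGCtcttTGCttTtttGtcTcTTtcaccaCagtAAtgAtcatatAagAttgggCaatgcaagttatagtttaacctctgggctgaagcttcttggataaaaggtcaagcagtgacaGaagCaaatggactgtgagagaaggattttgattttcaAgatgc
Of the 300 bases, 20 were marked in Ugt2b37 and 20 in Ugt2b38, and 280 of 298 aligned bases were identical between them (94.0%). Ugt2b5 had 51 marked bases against Ugt2b38 and was 89.6% identical to it and 89.3% identical to Ugt2b37 over the aligned bases. The forkhead motif TGTTTAC, searched on both strands, was found as gtaaaca at -152 in Ugt2b38 and at -150 in Ugt2b37, counted from the start site. The Ugt2b5 line reads gtaaaAa at the same place and held no match. This motif was found in 3.15% of 21757 promoters of the same length, and in 3 of the 10 members, the third being Ugt2b35. The C/EBP-type motif TTGCNNAA, with N as any base, was found in Ugt2b5 as ttgggCaa at -62. It was found in neither Ugt2b37 nor Ugt2b38, and in 10.7% of the promoters.

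In the coding sequence, Ugt2b5 and Ugt2b38 were 97.0% identical, Ugt2b5 and Ugt2b37 94.7%, and Ugt2b37 and Ugt2b38 94.1%. Ugt2b35 and Ugt2b36 were the next closest pair at 88.5%. Ugt2b1 and Ugt2b34, which stand side by side at one end of the cluster, were closest to each other at 76.0%. Ugt1a1 and Ugt3a2 had no close relative among the members, with highest identities of 62.4% (to Ugt2a3) and 61.9% (to Ugt2b34). Over the 21 pairs of Ugt2b members, the first coding exon was less alike than the remaining exons in 20, with median identities of 70.2% against 81.1%. The exception was Ugt2b5 with Ugt2b38, whose first exons were 99.3% identical and whose other exons were 95.2% identical.

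This likeness bears on how well a read can be assigned, since only uniquely mapped reads were counted. Of all 100-base stretches of exon sequence, 98.6% to 100% occurred once in the genome for 7 members. For Ugt2b5 the share was 66.5%, for Ugt2b38 66.8% and for Ugt3a2 50.5%. Ugt2b38 shared 434 such stretches, 33.2% of its own, with Ugt2b5, where they were 22.8%. A further 10.7% of the Ugt2b5 stretches had a copy on chromosome 7 outside annotated genes, and 49.5% of those of Ugt3a2 had a copy on chromosome 15 outside annotated genes. The levels of Ugt2b5, Ugt2b38 and Ugt3a2 are therefore uncertain, since reads that map to more than 1 place were not counted. With stretches of 150 bases, the length of 1 read, the shares were 70.8% for Ugt2b5, 68.9% for Ugt2b38 and 44.4% for Ugt3a2, and 100% for the other 7. Stretches were taken within single runs of exon bases shared with no other gene on the same strand. Shorter runs and reads over exon junctions were left out, and the mate of a read was not considered. The shares are therefore not shares of reads that can be assigned.

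**Figure D1:**
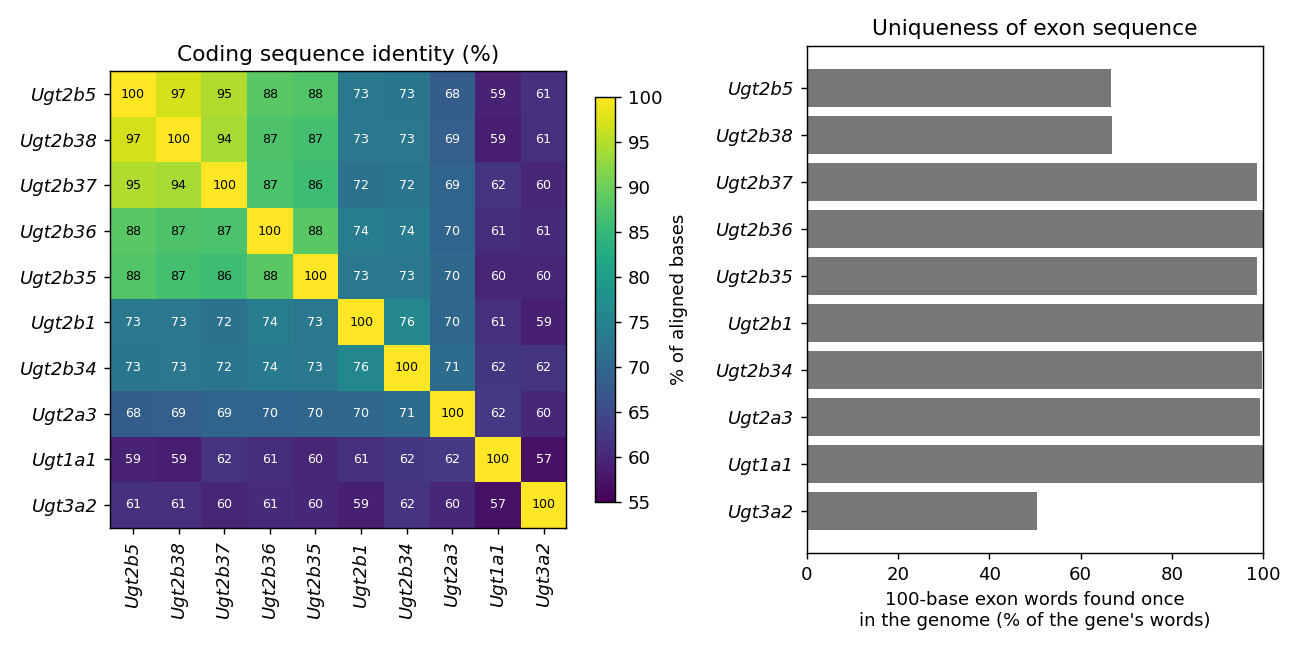
Left, percent of aligned coding bases that were identical for each pair of the 10 members (colour and number). Right, percent of 100-base stretches of each gene's exon sequence that occur once in GRCm39; Ugt2b5, Ugt2b38 and Ugt3a2 stand at 66.5%, 66.8% and 50.5%, and the other 7 at 98.6% or more.

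The transferases were not expressed at one level. Between genes, levels are given as CPM per kilobase of countable exon, that is, exon bases shared with no other gene on the same strand. Stretches that occur more than once in the genome were kept in this length. The values of Ugt2b5, Ugt2b38 and Ugt3a2 may therefore be too low. In males 7 members ranged from 89.1 to 333, with Ugt3a2 at 18.8 and Ugt2b38 and Ugt2b37 below 10. In females the same 7 members ran from 37.6 to 352, with Ugt3a2 at 22.9 and Ugt2b37 and Ugt2b38 lowest. The highest member exceeded the lowest 463-fold in males and 1027-fold in females, and 463-fold and 527-fold when all exon bases were taken as the length.

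Ugt2b5 led in males with 333 CPM per kb, from an authors' mean of 25085 normalized counts, and was the 90th highest of 17680 genes ranked on this scale. In females it held the second place with 181, from a mean of 13848. Ugt2b5 belongs to the Ugt2b enzymes that conjugate steroids and foreign compounds. Its share of the summed level of the 10 members was 25.0% in males and 17.2% in females.

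Ugt1a1 led in females with 352 CPM per kb, from a mean of 9920 normalized counts, the 83rd highest gene, and came second in males with 245, from a mean of 6769. It supplied 33.5% of the summed member level in females and 18.3% in males. These places rest on the length used. Ugt1a1 has 3231 exon bases, but only the 915 of its first exon are its own, the remainder being shared by the Ugt1a genes, and a counter that drops reads on 2 genes would see only those. Over all its exon bases Ugt1a1 came 7th in males and 5th in females, and its share was 5.98% and 12.5%.

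Ugt2b1 followed in males with 214 CPM per kb (mean 19395) and stood sixth in females with 90.8 (mean 8349). Ugt2b36 had 172 in males (mean 16607) and 128 in females (mean 12520). Ugt2a3 had 127 in both sexes, from means of 9037 and 9179. All 3 lie in the chromosome 5 cluster with Ugt2b5, and Ugt2b36 is next to it.

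Ugt2b34, at the first place of the cluster, had 126 CPM per kb in males (mean 16501) and 110 in females (mean 14622). Ugt2b35, the lone plus-strand gene of the cluster, had 89.1 in males (mean 11586) and 37.6 in females (mean 4979) and was seventh in both sexes. Ugt3a2, the one member of the Ugt3a family, was eighth in both, with 18.8 (mean 1520) and 22.9 (mean 1877). Its paralog Ugt3a1, which is no member, had 92.3 in males and 105 in females. Only 50.5% of the 100-base stretches of Ugt3a2 occurred once, and its length was not cut for this. The order of Ugt3a2 and Ugt2b35 in females and the distance from Ugt3a1 are therefore uncertain.

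Ugt2b37 and Ugt2b38 exchanged the last 2 places between the sexes. Ugt2b38 had a mean of 429 normalized counts in males (7.51 CPM per kb) and 20.0 in females (0.343). Ugt2b37 had a mean of 41.2 in males (0.720) and 129 in females (2.21). Ugt2b38 was thus 10.4 times Ugt2b37 in males, and Ugt2b37 was 6.46 times Ugt2b38 in females, by their means. Both genes have nearly the same exon length, 1894 and 1891 bases. Of their 100-base stretches, 98.6% occurred once for Ugt2b37 but only 66.8% for Ugt2b38, so the size of both ratios is uncertain.

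**Figure D2:**
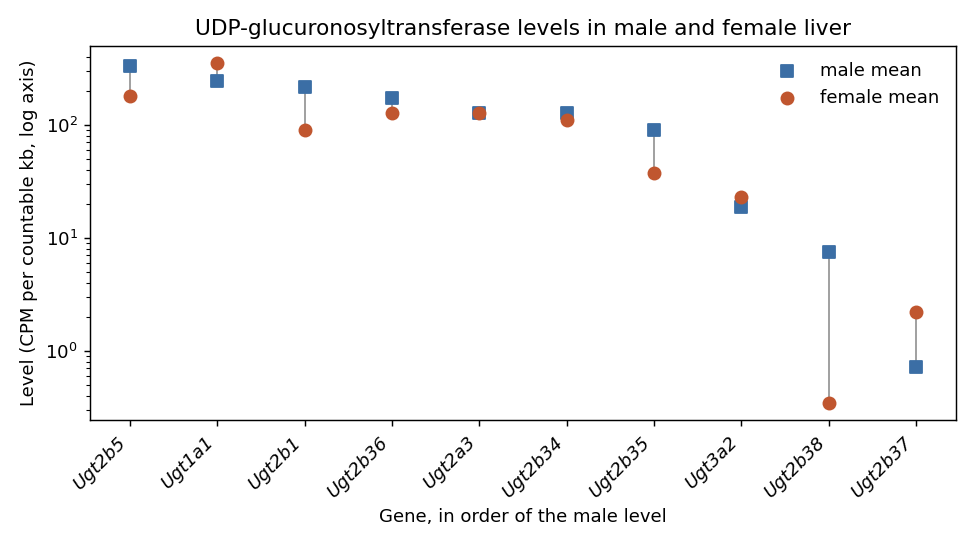
Level of each member in CPM per countable kilobase of exon (log axis) in males (blue squares) and females (orange circles), each point the authors' mean over 6 livers with no error available. Ugt2b5 is highest in males at 333 and Ugt1a1 in females at 352, and Ugt2b37 and Ugt2b38 change places at the bottom.

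The design has males and females beside the genotypes, and the ratio of the female to the male mean describes how the members differed between them. Each ratio compares 1 mean with 1 mean, so it is a description with no test. The sexes could also differ in batch, which is not given in the sources used here, and each mean mixes both genotypes, so sex, batch and an unequal effect of Midn-T in the sexes cannot be told apart. The ratios were read against 14244 genes with at least 1 CPM in either sex.

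Of these genes, 7.81% were at least 1.5 times higher in females and 4.14% at least 1.5 times higher in males. Among the 10 members, 1 was higher in females by this measure and 4 were higher in males, and 5 lay between. Ratios below 1 were found for 7 members and above 1 for 3. The median log2 ratio was -0.32 over the members and 0.01 over all 14244 genes. The background leaves out genes listed for males only, and its shares move with the level required. Among genes with at least 10 CPM in either sex, 4.32% were higher in females and 3.48% in males, and of the 9 members at that level 0 and 4 were, Ugt2b37 being below it. With a ratio of 2 as the limit, the counts were 1 and 3, the gene no longer counted being Ugt2b5. The share of all genes at that limit was not computed, so these 2 counts have no background to be read against.

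Ugt2b38 stood farthest from 1, at 21.9 times higher in males (log2 -4.45). Of the 14244 genes, 13 had a lower ratio, 0.0913%. The shared stretches that make its level uncertain are those with Ugt2b5, given above. Its female mean of 20.0 normalized counts was the lowest value of any member in either sex. In males Ugt2b38 equalled 1.71% of the mean of its close copy Ugt2b5, and in females 0.144%.

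Ugt2b35 and Ugt2b1 were 2.37 and 2.36 times higher in males (log2 -1.24 for both), with 175 and 176 genes at a lower ratio. Ugt2b5 was 1.84 times higher in males (log2 -0.88), with 291 genes lower. These 3 genes and Ugt2b38 make up the 4 male-higher members, all Ugt2b genes of the chromosome 5 cluster.

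Ugt2b37 was the only member past the limit in the other direction, 3.08 times higher in females (log2 1.62), with 139 genes at a higher ratio. It lies between Ugt2b5 and Ugt2a3. Its promoter is 94.0% identical to that of Ugt2b38, whose ratio pointed the other way.

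The remaining 5 members lay inside the limits. Ugt1a1 was 1.44 times higher in females (log2 0.53), just short of 1.5, and Ugt3a2 1.21 times (log2 0.28). Ugt2b36 was 1.35 times higher in males (log2 -0.43) and Ugt2b34 1.15 times (log2 -0.20). Ugt2a3 had the same level in both sexes (log2 -0.0015), and its sign turned under 3 of the 4 other ways of scaling the tables, which shifted every ratio by up to 0.024 on the log2 scale. The other 9 members kept their direction under all 4.

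**Figure D3:**
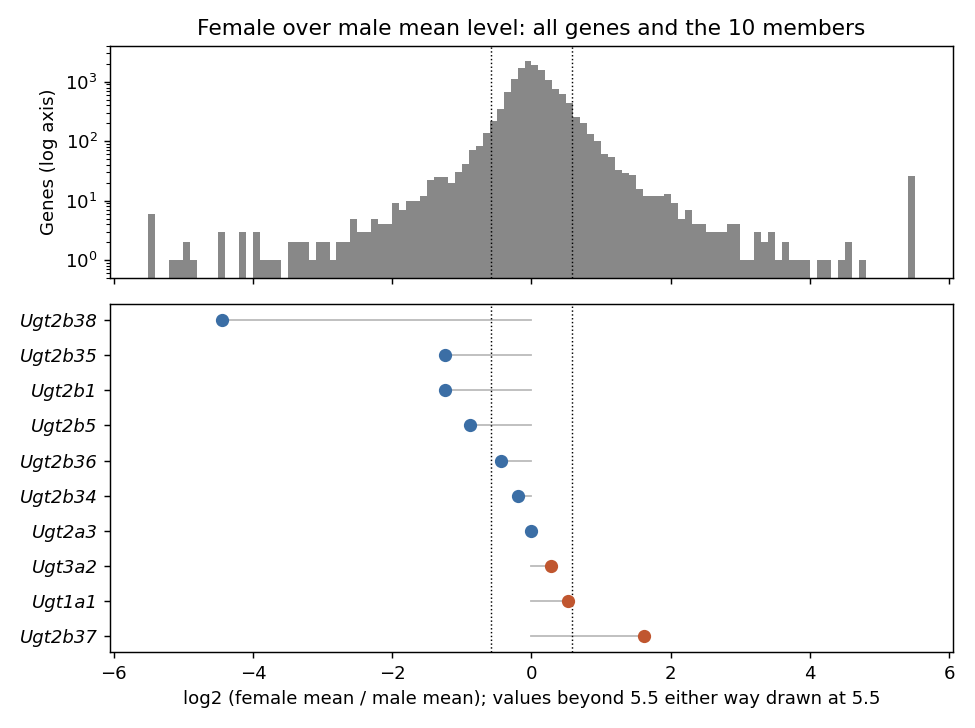
Top, number of genes (log axis) by log2 of the female over the male mean for the 14244 genes with at least 1 CPM in either sex. Bottom, the same value for each member; dotted lines mark a ratio of 1.5 either way, with 4 members beyond the male side, led by Ugt2b38 at -4.45, and Ugt2b37 beyond the female side at 1.62.

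Along chromosome 5 the ratios did not follow a single direction. Of the 7 Ugt2b genes, 6 had a ratio below 1. Ugt2b37 interrupted the run, and the last gene, Ugt2b38, had the lowest ratio of all. The gene between those, Ugt2a3, was level. The sum of the 10 members was 3536 CPM in males and 2453 in females, 1.44 times higher in males. Per kilobase the sums were 1333 and 1052, 1.27 times higher. The 4 highest members held 72.3% of the per-kilobase sum in males and 74.9% in females. These per-kilobase sums, their ratio and these shares rest on the countable length of Ugt1a1, as its own share does.

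**Figure D4:**
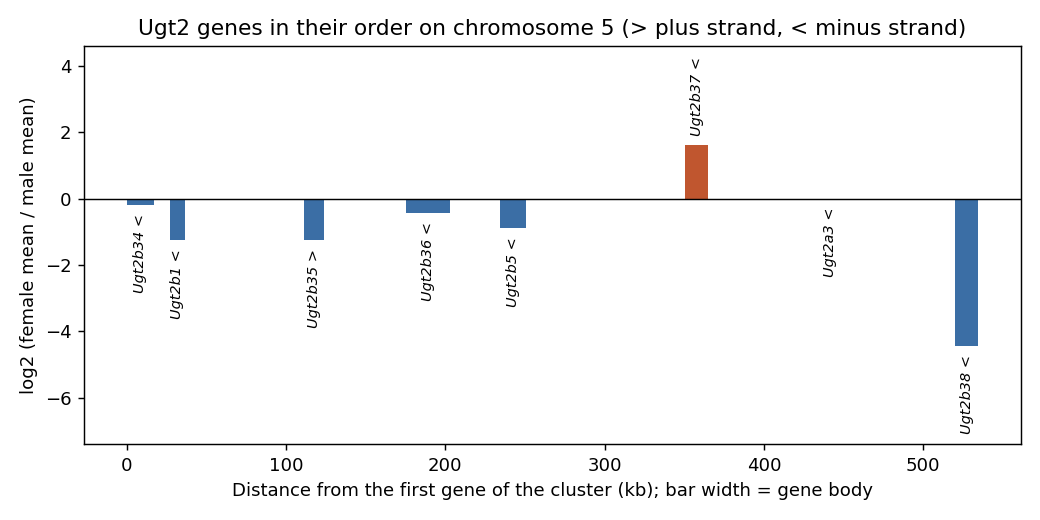
log2 of the female over the male mean (bars) for the 8 members on chromosome 5, placed by their distance from the first gene of the cluster in kb, with bar width equal to the gene body and arrows for strand. Ugt2b37 stands at 1.62 between neighbours at -0.88 (Ugt2b5) and near 0 (Ugt2a3), and Ugt2b38 at the far end reaches -4.45.

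Motifs of factors known in hepatocytes were searched in the same 300-base promoters, on both strands. Only exact runs of the letters were counted, with N as any base, so a similar run was missed. The HNF1 half-site GTTAAT was found in Ugt1a1, Ugt2a3 and Ugt3a2, that is 3 of 10 members, and in 6.88% of all promoters. HNF1 factors are known for driving hepatocyte genes. The promoters of Ugt1a1 (chr1:88139429-88139728, plus strand) and Ugt2a3 (chr5:87485006-87485305, minus strand) are shown as the pair with this motif close to the start site, with the matches in capitals.
Ugt1a1: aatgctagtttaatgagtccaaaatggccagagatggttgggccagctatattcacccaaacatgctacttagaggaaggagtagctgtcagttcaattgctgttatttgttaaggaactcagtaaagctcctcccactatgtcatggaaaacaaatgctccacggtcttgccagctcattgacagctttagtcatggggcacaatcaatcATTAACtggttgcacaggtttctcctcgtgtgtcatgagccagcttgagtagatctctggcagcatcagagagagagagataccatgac
Ugt2a3: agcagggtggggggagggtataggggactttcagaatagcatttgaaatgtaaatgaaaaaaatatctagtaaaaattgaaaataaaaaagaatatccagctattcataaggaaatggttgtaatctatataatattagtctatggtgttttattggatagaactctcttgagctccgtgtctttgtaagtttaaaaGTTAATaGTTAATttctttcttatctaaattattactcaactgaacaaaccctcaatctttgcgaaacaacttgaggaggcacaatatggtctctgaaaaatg
The matches began at -39 in Ugt1a1 and at -53 and -46 in Ugt2a3. In Ugt3a2 the match was at -123.

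The HNF6 core ATTGAT was found in Ugt1a1, Ugt2b1 and Ugt2b36 (7.10% of all promoters) and the C/EBP-type motif TTGCNNAA in Ugt2a3, Ugt2b1, Ugt2b5 and Ugt2b36 (10.7%). The TATA box letters TATAAA were found in Ugt3a2 (13.2%), where the match began at -8. The STAT5-type motif TTCNNNGAA (8.82%) and the Ah receptor core GCGTG (37.0%) were found in 0 of the 10 windows. A match is a run of letters and not a bound site, and a window without one says nothing about the factor. No match in these windows overlapped that of another motif.

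The other Ugt genes were read beside the members. Of 12, 10 were listed for both sexes, 9 of them with at least 1 CPM in either sex. Of these 9, 2 were at least 1.5 times higher in females and 0 in males, against 7.81% and 4.14% of the 14244 genes. Ugt1a5 was 2.60 times higher in females (45.5 in males against 118 CPM per kb in females) and Ugt1a10 2.05 times (2.12 against 4.34). Ugt8a, which makes galactolipids, was below 1 CPM in both sexes, with a ratio of 1.59 at 0.0259 against 0.0412 CPM per kb. Ugt1a6b was 1.47 times higher in males (54.6 against 37.1). Ugt1a6a (9.54 and 12.5), Ugt1a7c (10.4 and 11.1), Ugt1a2 (9.96 and 9.07), Ugt1a8 (6.13 and 8.41) and Ugt1a9 (40.7 and 53.9) lay inside the limits in males and females. Within the 9 Ugt1a genes, Ugt1a1 held 57.7% of the summed per-kilobase level in males and 58.1% in females. Ugt2a1 and Ugt2a2 were listed at 0 in males and were not listed for females. Ugt2a1 has only 34 countable bases among its 2574 exon bases. A counter that drops reads on 2 genes could hardly see it, so its 0 is no measure of absence.

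Genes of glucuronidation, from the supply of the sugar to its removal, were given from a list of 5. Of these, 2 were at least 1.5 times higher in males and 0 in females, against 4.14% and 7.81% of the 14244 genes. Ugdh, which oxidises UDP-glucose to UDP-glucuronic acid, had a mean of 6500 normalized counts in males and 3319 in females, 1.99 times higher in males. Slc35d1, which carries UDP-glucuronic acid into the endoplasmic reticulum, had means of 7867 and 4740, 1.69 times higher in males. Ugp2, which makes UDP-glucose, was 1.05 times higher in females. Slc35b1, a nucleotide carrier, and Gusb, the beta-glucuronidase that removes glucuronic acid, were 1.21 and 1.36 times higher in males.

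Of 6 carriers of conjugates and bile acids, 2 were at least 1.5 times higher in males and 1 in females, against 4.14% and 7.81% of the 14244 genes. Named after their values were seen, the carriers past the limit were Slco1a1 (2.63 times) and Abcg2 (2.23 times) in males and Slco1a4 (2.95 times) in females. Of 9 genes of regulators known to act on Ugt genes, 1 passed the limit, Nr1i3, the gene of the nuclear receptor CAR, at 1.56 times higher in females. The other 8 regulators lay inside it. With 7.81% of the 14244 genes past the limit in females, 1 of 9 is near the share of all genes. The log2 ratios ran from -1.39 to 1.56 over the carriers and from -0.25 to 0.64 over the regulators.

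The libraries matched their labels of tissue and sex as far as means can show. Alb, the gene of serum albumin, stood at 57064 CPM in males and 75844 in females, and 2 of 8 hepatocyte markers, Cyp3a11 (1.53 times) and Tat (1.61 times), were at least 1.5 times higher in males. Of the markers of other liver cells, Marco, 1 of 6 for Kupffer cells, was 1.55 times higher in males, Krt19 and Krt7, 2 of 5 for cholangiocytes, were past the limit in females, and 0 of 6 stellate, 0 of 5 endothelial and 0 of 4 lymphocyte markers were past it. The markers of each list summed to 245 and 251 CPM (Kupffer), 330 and 427 (stellate), 315 and 362 (endothelial), 35.1 and 38.6 (cholangiocyte) and 37.6 and 39.1 (lymphocyte) in males and females. The log2 ratios ran from -0.69 to 0.41 over the hepatocyte markers, from -0.63 to 0.35 (Kupffer), 0.30 to 0.48 (stellate), -0.45 to 0.28 (endothelial), -0.25 to 0.92 (cholangiocyte) and 0.04 to 0.22 (lymphocyte). Of all 14244 genes, 7.81% were past the limit in females and 4.14% in males. The part of cell makeup in the ratios of the members was not tested. Xist, the RNA of the inactive X chromosome, had a mean of 14.0 in males and 72478 in females, and 4 Y-linked genes were listed for males only.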

How the data were processed

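RNA was taken from whole liver of 12 mice, depleted of ribosomal RNA and made into reverse-stranded, paired-end 150-base libraries. Per the labels, reads were aligned with STAR 2.7 to GRCm39 and counted with HTSeq. Uniquely mapped reads were assigned to Ensembl genes, and the overlap mode is not given in the sources used here. The deposited signal is the mean normalized count, which the authors made by dividing read counts by DESeq2 size factors and averaging the 6 livers of 1 sex. The other columns of the tables hold the authors' comparison of Midn-T with WT (log2 fold change, its standard error, test statistic, p-value and adjusted p-value), and the ATAC-seq files hold positions and directions of their differential peaks. None of these was used. No values of single livers were analysed, so depth per library and spread are unknown.

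Tables were joined by Ensembl identifier and scaled to a total of 1000000 (CPM) over the 18149 genes listed in both. The male table also lists 26580 genes at 0. The table sums were 3.03e+07 in males and 3.08e+07 in females. Lengths came from GENCODE M39 on GRCm39. The authors used another release of the same build. A countable base is an exon base that no other gene on the same strand shares. Ratios were counted at 1.5 either way among genes with at least 1 CPM in either sex, and ranks cover 17680 genes with at least 100 countable bases. Coding sequences and promoters were aligned in pairs with Biopython 1.88. Coding sequence took the place of protein sequence, for which no table was at hand. Start sites were those of the canonical transcripts. Exon stretches of 100 bases were looked up on both strands of the genome. Python 3.11.15, numpy 2.4.6, numba 0.67.0, pyfaidx 0.9.0.4 and matplotlib 3.10.9 were used. Some steps were checked on simulated data. The ratio step was checked only under a scaling other than the reported one. No test was made.

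The members, the lists and the limits were chosen with earlier results of these data known. All members were named. Values were given for every other Ugt gene and for the 5 genes of glucuronidation, and counts and ranges for the remaining lists. Alternatives covered the scaling, the length, the limits and the length of exon stretch.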

Additional observations from a re-analysis of the deposited data

How the results depend on the processing

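With one mean per sex, depth and spread are unknown and limit every value. No paired analysis was possible because the values used are means over all livers of a sex, and for the same reason no liver could be left out. Of 134 values recomputed under another setting, 120 stayed within the size counted as unmoved and 14 did not. Ugt1a1 was the member whose share rested on the length used. Its share of the summed member level, 18.3% in males and 33.5% in females per countable kilobase, was 5.98% and 12.5% with all exon bases, 5.69% and 12.0% with the longest transcript and 6.33% and 13.1% with no length. Of the other members, Ugt2b34 and Ugt2b35 moved when no length was used. The share of all genes at least 1.5 times higher in females was 4.32% among those with at least 10 CPM, against 7.81%, while the male share was 3.48% against 4.14%. Of 40 member ratios under 4 other scalings, 37 kept their direction, and the 3 others were all of Ugt2a3. Each scaling shifted all ratios alike, by at most 0.024 on the log2 scale. Only a ratio that close to 1 could turn, so the 37 say little about the other members.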
